A study of Mus musculus with 8 samples.

Results

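The 9 genes *Il1r2*, *Pyy*, *Antxr1*, *Smoc2*, *Serpinb2*, *Dlk2*, *Fcgbp*, *Slc4a8* and *Slc6a4* were examined as candidate markers of undifferentiated cells of the interfollicular epidermis (IFE), out of 19591 genes listed in the files. They were chosen because they led the undifferentiated epidermal wells by fold in the single-cell data, so their single-cell values are a description. Only the bulk libraries were tested. The rule of the choice did not use these libraries, but bulk results were known when the genes were chosen. The bulk test is therefore not fully independent of the choice. All 9 genes were present in the bulk files and in each of the 6 single-cell plates. The study asked which epidermal cells express *Troy*, listed here as *Tnfrsf19*, and used adult C57BL/6 mice with the *Troy*-EGFP-IRES-CreERT2 knockin, in which the reporter and Cre cassette replaces the coding region of *Troy*. For the bulk libraries, epidermal cells of 2 such mice were sorted into all viable (DAPI-), ITGA6bright EGFP+ and ITGA6bright EGFP- cells. ITGA6 is an integrin subunit by which basal keratinocytes hold on to the basement membrane. Single cells came from 4 mice of the same knockin (EGFP mice 1 to 4) and from 2 mice that carried it together with Rosa26-LSL-tdTomato, both alleles homozygous, and that had received a single dose of tamoxifen a week earlier (traced mice 1 and 2). All mice thus carried the knockin, wild-type mice were not analysed here, and the sort gate of a well was not used. By this genotype the traced mice had no intact copy of *Troy*. *Tnfrsf19* was found in 8 of their 429 wells against 87 of 680 wells of the EGFP mice.

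The IFE is renewed from a basal layer of *Krt14*+ keratinocytes that sit on the basement membrane. Cells that leave this layer switch to *Krt10* and *Krt1* and move outward, while hair follicles and sebaceous glands keep their own progenitors. Among the genes described here, *Il1r2* encodes a decoy receptor that binds interleukin-1 without signalling, *Antxr1* an anthrax toxin receptor that binds collagen, and *Smoc2* a secreted calcium-binding matrix protein of the SPARC family. *Dlk2* encodes a membrane protein related to the Notch ligands, *Serpinb2* the intracellular serpin also known as plasminogen activator inhibitor type 2, and *Fcgbp* a large secreted mucin-like protein. *Pyy* encodes the gut hormone peptide YY, *Slc4a8* a sodium-driven chloride bicarbonate exchanger and *Slc6a4* the serotonin transporter.

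By GENCODE vM21 on GRCm38, the build the submitters' notes name as mm10, *Il1r2* lies at chr1:40074079-40125231 and *Serpinb2* at chr1:107511423-107535478, both on the plus strand. *Antxr1* lies at chr6:87133853-87335821 on the minus strand, *Fcgbp* at chr7:28071236-28120862 on the plus strand and *Slc6a4* at chr11:76998603-77032340 on the plus strand. *Pyy* lies at chr11:102106676-102107832 on the minus strand, *Slc4a8* at chr15:100761747-100823968 on the plus strand, and *Smoc2* and *Dlk2* at chr17:14279506-14404790 and chr17:46297421-46303271, both on the plus strand. All 9 are annotated as protein-coding. *Serpinb2* overlaps *Serpinb10* on the same strand, and 11.2% of the 31-base words of its transcripts also stand in those of *Serpinb10*. *Fcgbp* shares 11.8% of its words with the neighbouring gene *9530053A07Rik*, so reads of these 2 members could be split between genes. For each of the other members, the gene sharing most held at most 0.264% of the words.

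Promoter sequences were matched in RefSeq (GRCm38.p6) for 7 of the 9 genes; *Antxr1* and *Smoc2* are named only. The 250 bases before the start are shown for the 3 members with the largest bulk difference between EGFP+ and EGFP- cells, with capitals marking an AP-1 site (TGANTCA) or an E-box (CANNTG). They are *Il1r2* (chr1:40085843-40086092, plus strand), *Serpinb2* at the first of its 2 listed starts (chr1:107511173-107511422, plus strand) and *Slc4a8* (chr15:100761497-100761746, plus strand). The *Il1r2* window precedes an internal start: it lies inside the gene, past the first base of both the RefSeq gene (40084692) and the GENCODE gene. The *Serpinb2* window ends just before the GENCODE gene but lies inside the RefSeq gene, which begins at 107500892, and that of *Slc4a8* precedes the first base of both.
Il1r2: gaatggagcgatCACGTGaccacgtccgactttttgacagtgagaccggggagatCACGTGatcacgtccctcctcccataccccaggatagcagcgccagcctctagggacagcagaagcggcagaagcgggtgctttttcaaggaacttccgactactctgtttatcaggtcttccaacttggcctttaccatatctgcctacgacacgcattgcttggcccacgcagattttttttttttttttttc
Serpinb2: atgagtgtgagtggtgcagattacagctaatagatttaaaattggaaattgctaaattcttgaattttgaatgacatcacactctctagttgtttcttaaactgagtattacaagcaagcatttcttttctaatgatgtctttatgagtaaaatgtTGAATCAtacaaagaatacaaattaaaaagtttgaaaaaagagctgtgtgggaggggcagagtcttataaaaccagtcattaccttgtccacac
Slc4a8: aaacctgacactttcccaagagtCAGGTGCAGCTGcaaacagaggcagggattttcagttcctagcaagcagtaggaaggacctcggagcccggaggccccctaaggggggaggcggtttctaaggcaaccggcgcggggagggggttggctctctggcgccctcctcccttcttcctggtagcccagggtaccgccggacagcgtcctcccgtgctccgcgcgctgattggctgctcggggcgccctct
The capitals in *Il1r2* and *Slc4a8* are E-boxes, 2 in each window, and those in *Serpinb2* are an AP-1 site that begins 94 bases before the start. The 250 bases before the start were searched on both strands. The 7 members have 10 listed promoters, and counts of these are set beside shares of all 32851 listed promoters. The AP-1 letters were found in 2 of the 10, the overlapping windows of *Serpinb2*, and in 6.75% of all promoters. TATAAA was also found in 2 of the 10, for *Serpinb2* alone, and in 12.4% of all promoters. An E-box stood in 7 of the 10, for all members but *Serpinb2*, and in 66.2% of all promoters. GGGCGG was found in 2 of the 10, for *Dlk2* and *Slc6a4*, and in 32.7% of all promoters. The windows also differed in base composition, from a GC content of 32.4% for the first *Serpinb2* start to 80.8% for the second *Dlk2* start, against a median of 52.4% over all promoters. These matches describe letters and not bound sites.

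Each single-cell plate had 384 wells, and wells with at least 1000 transcripts outside spike-ins and mitochondrial genes were kept. This left 71, 129, 218 and 262 wells of EGFP mice 1 to 4 and 229 and 200 wells of traced mice 1 and 2, in all 1109 wells. The plate of EGFP mouse 1 stood apart, with a median of 1676 transcripts per kept well against 2232 to 3267 on the other 5 plates, and shares of wells are therefore also given after each well was thinned to 1000 transcripts. The bulk libraries held between 157537 and 453005 counts, least in EGFP- cells.

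On every plate but that of EGFP mouse 1, most kept wells held at least 1 of the 9 genes. The share was 31%, 63.6%, 62.4% and 61.5% of the wells of EGFP mice 1 to 4, a mean of 54.6% ± 15.8 (SD, n = 4), and 72.1% and 71.5% in traced mice 1 and 2. After thinning it was 38.2% ± 11.7 (SD, n = 4) in the EGFP mice and 53.6% ± 0.150 (SD, n = 2) in the traced mice. Wells with 3 or more of the genes were 19.8% ± 8.73 (SD, n = 4) and 28.2% ± 0.272 (SD, n = 2), and the most found in 1 well was 8 of the 9. EGFP mouse 1 was the lowest plate in the share of wells with any of the genes, and without it the share of wells with any of the genes was 62.5% in the EGFP mice. The EGFP and traced plates differ in genotype, tamoxifen, gates and depth, which cannot be told apart, so their values are set side by side without a test. By the paper the traced mice were all male, while its other experiments used both sexes, so the plates may differ in sex too. The plates also differ in *Mir1950* and *Kcnq1ot1*, which the study used as markers of necrotic cells. Together these were at 20139 to 46306 TPM in the named classes of the EGFP wells and at 685 to 1505 TPM in the classes of the traced wells. In 96 EGFP wells of 2 unnamed clusters, which are kept in the shares, they were at 229011 and 262378 TPM. In epidermal wells alone, without these clusters and the immune cell-like wells, the share with a member was 68.4% ± 2.06 (SD, n = 4) in the EGFP mice and 75.7% ± 1.49 (SD, n = 2) in the traced mice. The part of these RNAs in the differences between EGFP and traced plates was not tested.

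*Fcgbp* was found in 484 of the 1109 wells (43.6%), and *Smoc2*, *Serpinb2*, *Il1r2* and *Antxr1* in 292, 255, 231 and 189. The other members were sparse, with *Slc6a4* in 129 wells, *Dlk2* in 103, *Slc4a8* in 79 and *Pyy* in 40 (3.61%). A single transcript was often all that was seen. Of the 61 wells with *Dlk2* in the EGFP mice, 35 held 1 transcript and 0 held 5 or more, whereas 79 of 234 wells with *Fcgbp* held 5 or more.

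*Il1r2* was found in 2.82%, 11.6%, 18.3% and 20.6% of the wells of EGFP mice 1 to 4 and in 28.4% and 27.5% of those of traced mice 1 and 2. Both traced plates thus stood above all 4 EGFP plates, also after thinning, when the shares were 2.82% to 10.7% and 15.3% to 16%. *Fcgbp* had the same order, with 7.04%, 37.2%, 37.2% and 38.2% in the EGFP mice and 55.9% and 61% in the traced mice. Thinned, these became at most 26.1% in the EGFP mice and 39.7% and 40% in the traced mice.

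*Antxr1*, the collagen receptor, was the most even of the members, in 14.1%, 18.6%, 14.7% and 16.8% of the wells of EGFP mice 1 to 4 and in 18.3% and 18.5% of those of the traced mice. *Smoc2* was found in 12.7%, 31%, 28.0% and 27.1% in EGFP mice 1 to 4 and in 25.8% and 26% in the traced mice. *Serpinb2* was found in 16.9%, 33.3%, 19.7% and 25.2%, and in 21.0% and 21.5%. For these 3 genes the traced plates lay within the range of the EGFP plates.

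*Dlk2* was found in 4.23% to 11.5% of the wells of an EGFP plate and in 9.61% and 10% of the wells of the traced plates. For *Slc4a8* the shares were 4.65% to 11% and 9.17% and 3.50%, and for the serotonin transporter gene *Slc6a4* 5.63% to 20.2% and 10.5% and 7%. Of these 3 genes, only *Slc4a8* had a traced plate outside the range of the EGFP plates, at its low end.

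*Pyy* was found in 1, 1, 20 and 4 wells of EGFP mice 1 to 4 and in 10 and 4 wells of the traced mice. In EGFP mouse 3, 9.17% of wells held *Pyy* (exact 95% binomial interval 5.69% to 13.8%, counting error only), against at most 1.53% in the other EGFP mice. One well of that mouse held 149 *Pyy* transcripts, 2.68% of its 5546, and *Pyy* was its most abundant gene. The next well held 33.1. The level in EGFP mouse 3 was 313 transcripts per 1000000 (TPM) with this well and 121 without it, against 2.74 to 6.89 in the other EGFP mice. The well also held 50.3 transcripts of *Krt14*, 96.1 of *Krt5* and 51.3 of *Fcgbp* but 0 of *Krt10* and of *Il1r2*. It held 0 of the 8 listed genes of Merkel and endocrine cells, the cells of skin and gut that make peptide hormones. Any of these 8 genes was found in 1 of the 26 wells with *Pyy* in the EGFP mice and in 0 of 14 in the traced mice, beside 3.68% and 7.69% of all wells.

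**Figure D1:**
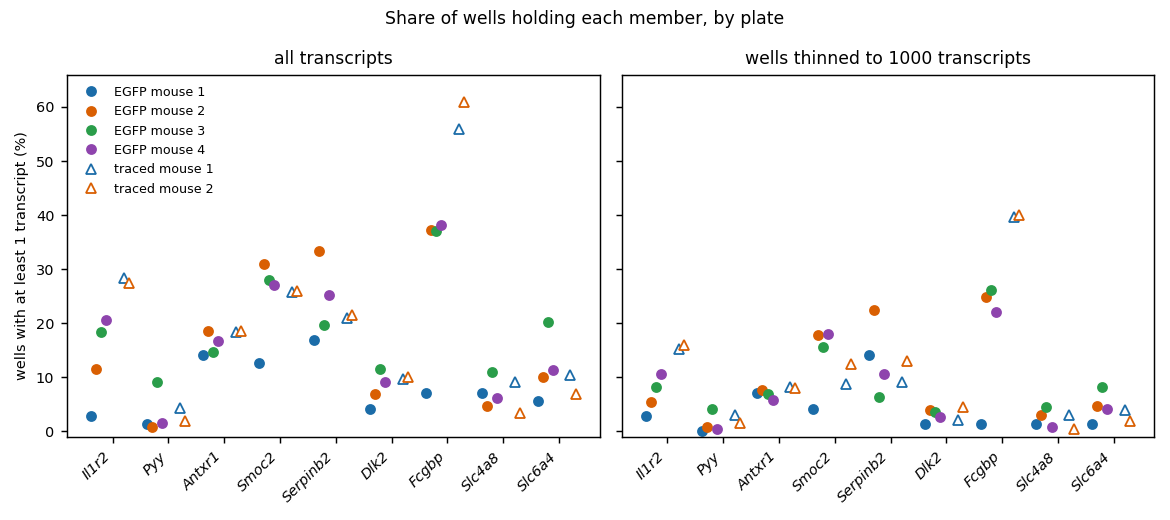
Share of kept wells with at least 1 transcript of each gene (y axis, %) on each of the 6 plates, with all transcripts (left) and after thinning each well to 1000 transcripts (right). Filled circles are EGFP mice 1 to 4 and open triangles traced mice 1 and 2; *Il1r2* and *Fcgbp* are highest on the 2 traced plates in both panels, and *Pyy* stands out in EGFP mouse 3.

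Wells with a member usually held *Krt14* as well. *Krt14* was found in 66.8% of all 1109 wells, but in 92.2% of wells with *Dlk2*, 91.8% of those with *Il1r2*, 91.8% of those with *Smoc2*, 90.5% of those with *Antxr1*, 89.7% of those with *Fcgbp*, 89.1% of those with *Slc6a4*, 87.3% of those with *Slc4a8* and 86.7% of those with *Serpinb2*. *Pyy* was the exception, with 65%. The wells with a member were also deeper, with medians of 3459 to 4375 transcripts against 2903 over all wells.

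Thinned to 1000 transcripts, *Krt14* was found in 57.4% of all wells and in 79.6% to 92% of the wells with a member other than *Pyy*. *Krt10*, the keratin of committed cells, was found with all transcripts in 33.1% of all wells and in 24.3% (*Dlk2*) to 43.5% (*Serpinb2*) of the wells with a member other than *Pyy*, which was at 62.5%. With *Il1r2*, *Slc4a8*, *Slc6a4*, *Smoc2*, *Fcgbp* and *Antxr1* it was in 31.2% to 33.8%, close to all wells. By experiment the shares went both ways, with *Il1r2* at 45% against 36.9% of all wells in the EGFP mice and at 23.3% against 27.0% in the traced mice. It was found after thinning in 22.7% of all wells, in 5.71% of wells with *Dlk2*, in 10% with *Antxr1*, in 12% with *Slc4a8* and in 13.8% with *Smoc2*. It was in 14.4% of wells with *Fcgbp*, 16.3% with *Slc6a4* and 16.4% with *Il1r2*. *Serpinb2* was close to all wells with 22.7%, and *Pyy* lay above them with 47.6%. After thinning only 35, 25 and 21 wells were left with *Dlk2*, *Slc4a8* and *Pyy*, so these 3 shares are the least precise.

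Split by the 2 keratins and with all transcripts, wells with neither keratin held a member least often on each of the 6 plates. In the EGFP mice at least 1 member was found in 68.5% of the 267 *Krt14*+ *Krt10*- wells, 81.4% of the 145 *Krt14*+ *Krt10*+ wells, 51.9% of the 106 *Krt14*- *Krt10*+ wells and 27.8% of the 162 wells with neither. The traced mice gave 84.1% of 251, 79.5% of 78, 50% of 38 and 25.8% of 62 wells. The *Krt14*+ *Krt10*- share minus the *Krt14*+ *Krt10*+ share was -21.1 ± 17.8 percentage points (SD, n = 4 EGFP mice). This mean counts each plate equally. In EGFP mouse 1 the shares were 56.25% of 16 and 100% of 6 wells (3 wells after thinning). In EGFP mouse 3 they were 73.4% of 64 and 75% of 56 wells. The *Krt14*+ *Krt10*+ wells of every plate were the deeper of the pair (medians of 3016 to 4923 against 2331 to 3344 transcripts). After thinning the difference was -4.20 ± 9.83 percentage points, smaller than its spread, with pooled shares of 58.5% and 60.3%. Thinned *Krt14*- *Krt10*+ wells of the EGFP mice held a member in 24.3% and wells with neither keratin in 21.4%, but by plate this order held only in EGFP mice 1 and 2. Wells with neither keratin were the higher in EGFP mice 3 (28.3% against 25.4%) and 4 (26.9% against 20.9%) and in traced mouse 1 (24.1% against 22.2%), and both were at 25% in traced mouse 2. At equal depth, members were thus found more often in both kinds of *Krt14*+ wells than in wells without *Krt14*. The wells without *Krt14* were not all epidermal. In the EGFP mice, with all transcripts, *Krt14* was found in 8 of 39 Langerhans cell-like and 13 of 43 T cell-like wells. It was in 16 of 58 and 15 of 38 wells of the 2 unnamed clusters. The split is not given here for epidermal wells alone. In the traced mice the thinned shares were 69.5% of 262 *Krt14*+ *Krt10*- wells and 50% of 30 *Krt14*+ *Krt10*+ wells.

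**Figure D2:**
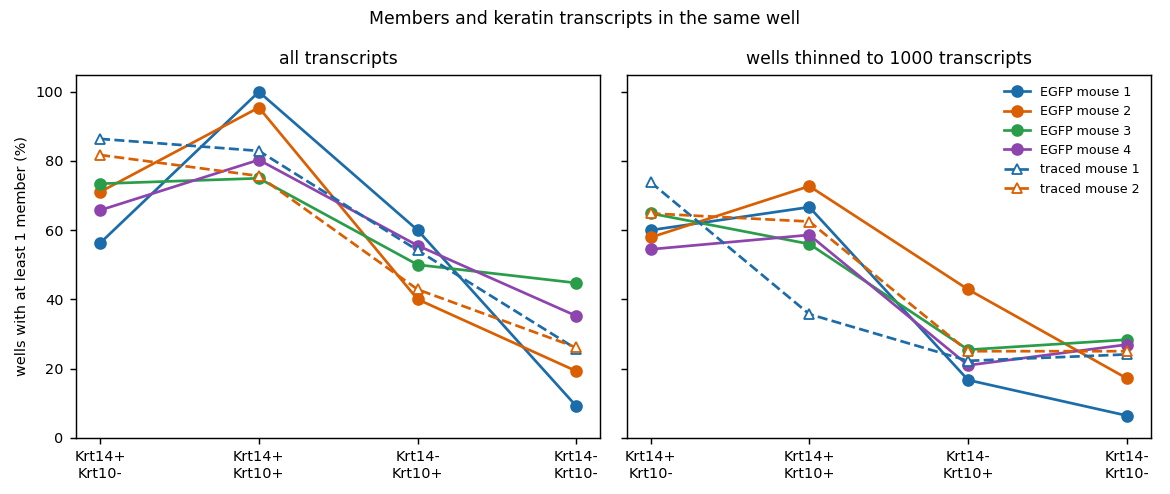
Share of wells with at least 1 of the 9 genes (y axis, %) in wells split by transcripts of *Krt14* and *Krt10* (x axis), 1 line per plate, with all transcripts (left) and thinned to 1000 transcripts per well (right). Solid lines are EGFP mice and dashed lines traced mice; after thinning, the wells without *Krt14* lie below 43% on every plate.

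Wells were clustered by experiment with the 9 genes left out of the clustering genes, and clusters were named from marker lists that do not contain them. Levels are TPM (not scaled by gene length) in the summed wells of 1 class in 1 mouse, given where there were at least 10 wells. In the EGFP mice, 165 wells were IFE basal-like, 116 IFE differentiated-like, 151 lower hair follicle (HF)-like and 70 upper HF-like, beside 43 T cell-like and 39 Langerhans cell-like wells and 96 wells in 2 unnamed clusters led by *Mir1950* and *Lipi*. In the traced mice, 127 were IFE basal-like, 42 IFE differentiated-like, 101 lower HF-like, 48 upper HF-like, 27 T cell-like and 84 in an unnamed cluster led by *Sostdc1*. The 10 listed IFE basal markers summed to 34703 and 38609 TPM in the IFE basal-like wells of the EGFP and traced mice and to 957 to 24010 TPM in the other classes, several of which also held all 10. The 10 listed lower HF markers summed to 3571 and 16947 TPM in the IFE basal-like wells of the EGFP and traced mice. In the lower HF-like wells they summed to 14988 and 24838 TPM. These classes come from the same wells as the choice of the genes, so the levels by class are given without a test.

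Mean levels of all 9 genes were highest in the IFE basal-like class of the EGFP mice, and of 8 genes, all but *Dlk2*, in that of the traced mice. By pooled fold over the other epidermal wells in the EGFP mice, the 9 genes lay between rank 1 (*Il1r2*, log2 fold 3.71) and rank 16 (*Fcgbp*, 2.02) of 18407 genes. The non-members among these 16 were *Cxcl9*, *Krt14*, *Man1c1*, *Ccnd2*, *Cbr2*, *Cxcr7* and *Slco2a1*, and *Itga6* (2.01) came next. *Pyy* was at rank 2, but 149 of its 215 transcripts in IFE basal-like wells were in 1 well of EGFP mouse 3. In the traced mice, which the choice may also have used, *Il1r2* was again at rank 1 (4.41), *Serpinb2* at 4, *Antxr1* at 5, *Smoc2* at 14 and *Slc4a8* at 29 of 13593 genes. *Slc6a4* was at rank 115, *Pyy* at 178, *Fcgbp* at 382 (0.79) and *Dlk2* at 582 (0.66).

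In the IFE basal-like class, *Il1r2* was at 54.2, 199, 582 and 424 TPM in EGFP mice 1 to 4 and at 1071 and 988 in traced mice 1 and 2. The value of EGFP mouse 1 rests on 2.00 transcripts in 10 wells, and its 8 IFE differentiated-like wells, under the minimum of 10, were higher at 121 TPM. Other epidermal classes were at 13.5 ± 5.58 (IFE differentiated-like), 9.15 ± 15.8 (upper HF-like) and 5.94 ± 5.18 (lower HF-like; SD, n = 3 EGFP mice each), and each of these sums lay below that of the IFE basal-like wells of the same mouse. In traced mouse 2 the IFE differentiated-like wells were at 141, against 0 in traced mouse 1. The IFE basal-like wells held 89.1% of the *Il1r2* transcripts of the EGFP plates and 93.9% of those of the traced plates.

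*Antxr1* was at 352, 310, 268 and 191 TPM in the IFE basal-like wells of EGFP mice 1 to 4 and at 220 and 334 in those of the traced mice. The next epidermal class was the lower HF-like wells, with 38.9 ± 19.9 (SD, n = 3) and 50.3 ± 9.28 (SD, n = 2). Every IFE basal-like sum was above every sum of another class with at least 10 wells.

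*Smoc2* was at 596, 413, 607 and 627 TPM in EGFP mice 1 to 4 and at 326 and 504 in the traced mice. Next among the traced classes was the *Sostdc1*-led cluster, at 148 and 133, followed by lower HF-like wells at 82.1 and 92.4. *Smoc2* also had levels in upper HF-like wells of 170 ± 29.2 (SD, n = 3) in the EGFP mice, but was found in 0 of the 48 upper HF-like wells of the traced mice, which by counting error alone allows up to 6.25% of wells with a transcript by the limit of 3 counts and 7.40% by the exact 95% interval. *Dlk2* was at 81.2, 111, 187 and 87.9 TPM in EGFP mice 1 to 4 and at 44.0 and 74.8 in the traced mice. In the traced mice the *Sostdc1*-led cluster was at 55.4 and 97.0, which overlaps the IFE basal-like values, so *Dlk2* did not set that class apart from this cluster.

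*Serpinb2* was at 623, 724, 293 and 443 TPM in EGFP mice 1 to 4 and at 411 and 464 in the traced mice. The IFE differentiated-like wells also held it, at 234 ± 202 (SD, n = 3) and 108 ± 45.1 (SD, n = 2), and 32.8% of these wells in the EGFP mice and 28.6% in the traced mice had a transcript. The 465 TPM in the IFE differentiated-like wells of EGFP mouse 2 lay above the IFE basal-like levels of EGFP mice 3 and 4, but below that of the same mouse.

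*Fcgbp* was at 814, 923, 1631 and 1259 TPM in EGFP mice 1 to 4 and at 1134 and 1292 in the traced mice. Its levels in upper HF-like wells, 840 ± 445 (SD, n = 3) and 1010 ± 152 (SD, n = 2), overlapped these, as did the 831 and 1202 of the *Sostdc1*-led cluster. The IFE basal-like wells held 65.8% of the *Fcgbp* transcripts of the EGFP plates and 43.3% of those of the traced plates.

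*Slc4a8* was at 108, 63.6, 187 and 68.8 TPM in EGFP mice 1 to 4 and at 128 and 24.9 in the traced mice. In traced mouse 2 the IFE differentiated-like wells were higher, at 43.4 TPM from 4.00 transcripts. The 11 T cell-like wells of EGFP mouse 3 were at 147 TPM from 3.00 transcripts, above 3 of the 4 IFE basal-like values of the EGFP mice. *Slc6a4* was at 379, 127, 293 and 157 TPM in the EGFP mice and at 77.0 and 49.8 in the traced mice, so both traced values lay below all 4 EGFP values, and the 61.6 and 24.2 of the *Sostdc1*-led cluster overlapped them, although each was below the IFE basal-like value of the same mouse. *Pyy* was at 0, 7.95, 1055 and 19.1 TPM in the EGFP mice and at 125 and 4.98 in the traced mice, whose IFE differentiated-like wells were at 37.3 and 54.3. In traced mouse 2 the differentiated-like level was thus the higher, with 5.00 transcripts against 1. Without the well with most *Pyy*, the mean of the EGFP mice was 84.9 ± 152 in place of 271 ± 523 (SD, n = 4), beside 41.3 ± 67.9 (SD, n = 3) in IFE differentiated-like wells. *Pyy* stood in 11 IFE basal-like and 11 IFE differentiated-like wells of the EGFP mice and in 5 and 6 of the traced mice, so it was spread over both classes by wells.

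**Figure D3:**
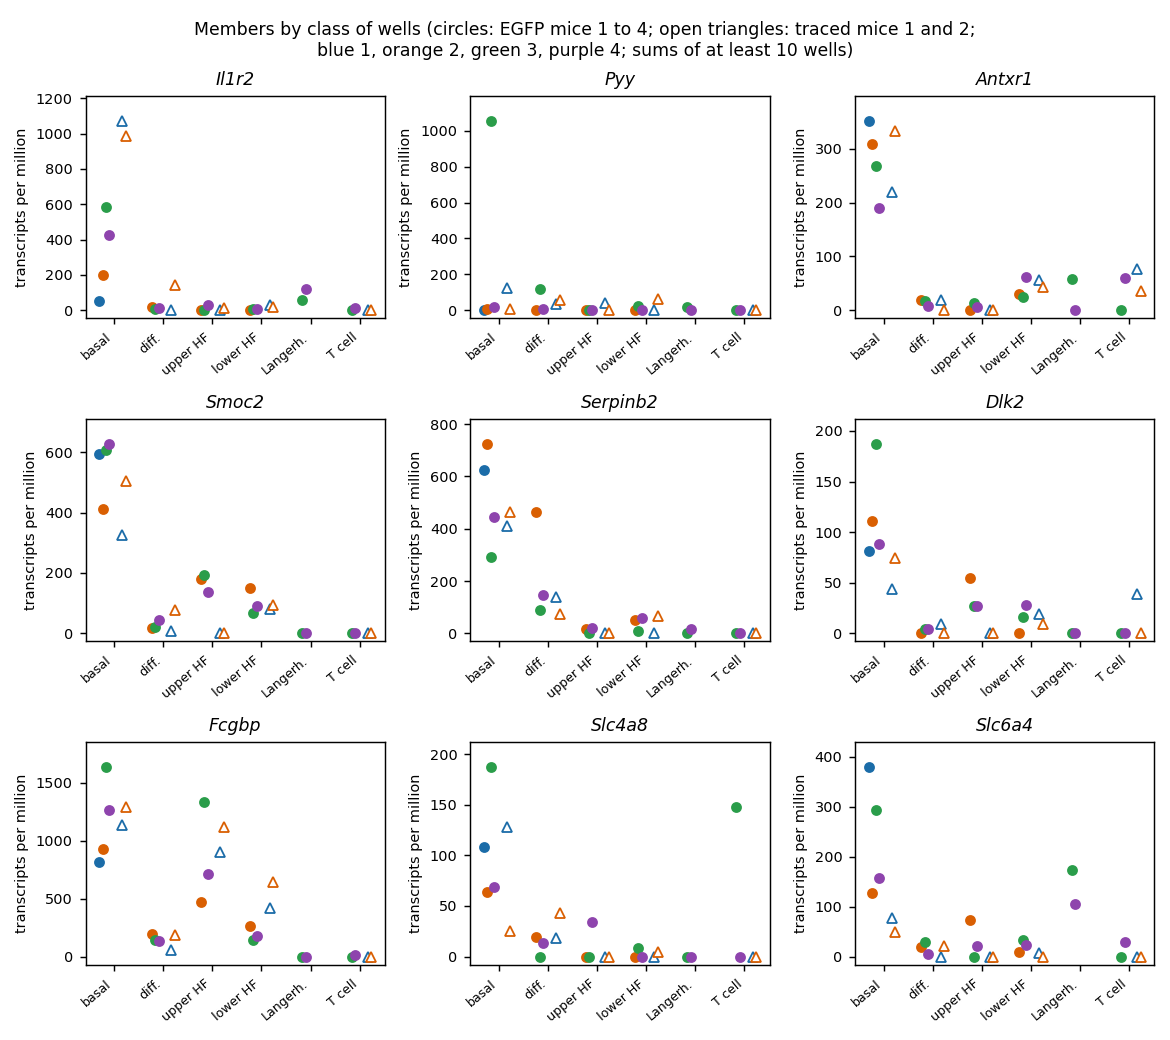
Transcripts per 1000000 (TPM; y axis, linear) of each of the 9 genes in classes of wells (x axis: IFE basal-like, IFE differentiated-like, upper HF-like, lower HF-like, Langerhans cell-like and T cell-like), 1 point per mouse and class with at least 10 wells. Filled circles are EGFP mice and open triangles traced mice; *Antxr1* is higher in each IFE basal-like sum than in any other class, whereas the *Fcgbp* levels of IFE basal-like and upper HF-like wells overlap.

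Immune cells of the epidermis gave a second group of wells with 2 of the genes. *Il1r2* was found in 10 of 39 Langerhans cell-like wells (25.6%, exact 95% interval 13.0% to 42.1%) and *Slc6a4* in 9 of 39 (23.1%, 11.1% to 39.3%). *Smoc2*, *Dlk2* and *Slc4a8* were found in 0 of the 39, which by counting error alone allows up to 7.69% of wells with a transcript by the limit of 3 counts and 9.03% by the exact 95% interval, and *Antxr1*, *Serpinb2*, *Fcgbp* and *Pyy* in 1 each. In the 43 T cell-like wells of the same plates, which were shallower, *Il1r2* was found in 1 and *Slc6a4* in 2. The Langerhans cell-like wells with these genes came from EGFP mice 3 and 4 alone, which held 35 of the 39. The levels there were 57.9 and 120 TPM for *Il1r2* and 174 and 105 for *Slc6a4*. The *Slc6a4* levels overlapped those of the IFE basal-like wells of the EGFP mice. The 2 traced plates gave no Langerhans cell-like cluster.

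Some members also met in the same wells. After thinning, *Fcgbp* was found in 148, *Smoc2* in 107 and *Il1r2* in 55 of all 680 wells of the EGFP mice. Of these wells, 58 held both *Smoc2* and *Fcgbp*, which is 54.2% of wells with *Smoc2* and 39.2% of wells with *Fcgbp*. *Il1r2* and *Fcgbp* met in 36 wells, 65.5% of wells with *Il1r2* and 24.3% of wells with *Fcgbp*. In the traced mice, where *Il1r2* was in 67, *Antxr1* in 35 and *Serpinb2* in 47 of 429 wells, *Il1r2* met *Antxr1* in 23 wells, which is 34.3% of the first and 65.7% of the second, and *Serpinb2* in 24 wells, 35.8% and 51.1%. *Il1r2* and *Fcgbp* met in 38 wells of the traced mice, and *Serpinb2* and *Fcgbp* in 33 wells of the EGFP and 28 of the traced mice. Pairs with a sparse member could be rare. In the EGFP mice *Il1r2* and *Dlk2* met in 3 wells, and *Pyy* met *Antxr1*, *Dlk2* and *Slc4a8* in 0. In the traced mice *Dlk2* met *Slc4a8* and *Slc6a4* in 0.

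Over the 13 sums of mouse and epidermal class of the EGFP plates, the genes most like the sum of the 9 members, of 6259 genes, were *Ccnd2* (Pearson r 0.89), *Krt14* (0.86), *Mill1* (0.86), *Figf* (0.85), *Fen1* (0.85), *Pdlim1* (0.84), *Arhgdib* (0.84) and *Mcm5* (0.83). These are descriptions over sums that share plates and depth. Each member was also set against the sum of the other 8: *Dlk2* was at 0.85, *Slc4a8* and *Smoc2* at 0.83, *Il1r2* at 0.80, *Antxr1* at 0.75, *Slc6a4* at 0.74 and *Fcgbp* at 0.68. *Serpinb2* (0.38) and *Pyy* (0.26) followed the others least, and these were the members with the most *Krt10* in their wells.

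The rule that chose the genes did not use the bulk libraries, although bulk results were known when the choice was made. In the EGFP+ cells *Tnfrsf19* was at 110 and 72.2 CPM (counts per 1000000 counts, TMM-scaled), against 22.6 and 35.0 in EGFP- cells (log2 fold change 1.65, SE 0.49, adjusted p = 0.0434). It was thus higher in the gate named for its reporter than in the EGFP- gate. In all viable cells *Tnfrsf19* was at 85.5 and 83.4 CPM, and EGFP+ cells were not called against them (log2 fold change 0.15, adjusted p = 0.997). In bulk libraries, fewer cells of a type and less RNA per cell cannot be told apart. 8 of the 9 members passed the filter on low counts, and 6 of them were higher in EGFP+ than in EGFP- cells at an adjusted p under 0.05, where 2.99% of all 4653 genes tested were called higher. 0 of the 8 were lower, against 4.06% of all genes (7.05% were called in either direction). 7 of the 8 members had both EGFP+ libraries above both EGFP- libraries, against 23.8% of all genes tested. The median log2 fold change was 1.66 over the 8 members and -0.04 over all genes tested. Adjusted p-values were computed by edgeR (quasi-likelihood test) and cover all genes tested.

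*Il1r2*, the decoy receptor, was at 212 and 212 CPM in the EGFP+ cells of mice 1 and 2, at 22.6 and 29.2 in EGFP- cells and at 92.6 and 185 in all viable cells. The EGFP+ and EGFP- libraries lay far apart, with the viable cells between them. It was 7.94-fold higher in EGFP+ than in EGFP- cells (log2 fold change 2.99, SE 0.49, adjusted p = 0.000492).

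*Slc4a8*, the bicarbonate exchanger, was at 107 and 104 CPM in EGFP+ cells, 30.2 and 5.83 in EGFP- cells and 42.8 and 63.1 in viable cells. The groups did not overlap, but the EGFP- values rest on 4 and 1 counts. The fold was 6.24 (log2 fold change 2.64, SE 0.58, adjusted p = 0.00667), and the call was lost by DESeq2 (adjusted p = 0.0845). Its size depended on single EGFP- libraries: the log2 fold change was 4.10 without EGFP- mouse 1 and 1.86 without EGFP- mouse 2.

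*Serpinb2* was at 163 and 149 CPM in EGFP+ cells, 37.7 and 29.2 in EGFP- cells and 67.7 and 90.2 in viable cells, again in 3 ranges that did not overlap. It was 4.71-fold higher in EGFP+ than in EGFP- cells (log2 fold change 2.24, SE 0.43, adjusted p = 0.00228). The overlapping gene *Serpinb10* was also higher (140 ± 25.7 against 48.0 ± 14.5 CPM, SD, n = 2; log2 fold change 1.52, adjusted p = 0.0274).

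*Antxr1* was at 131 and 67.7 CPM in EGFP+ cells, 22.6 and 35.0 in EGFP- cells and 49.9 and 87.9 in viable cells. Mouse 1 had the highest and the lowest of these 6 values, and the EGFP+ and viable ranges overlapped. The 3.49-fold difference from EGFP- cells passed the threshold narrowly (log2 fold change 1.80, SE 0.53, adjusted p = 0.0439). It was lost without EGFP+ mouse 1 (adjusted p = 0.456), without EGFP- mouse 1 (0.0544), with only these 2 populations in the fit (0.0868) and by DESeq2 (0.305).

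*Fcgbp* was at 1964 and 1624 CPM in EGFP+ cells, 657 and 606 in EGFP- cells and 1261 and 1197 in viable cells. The 3 populations did not overlap, and EGFP+ cells were 2.84-fold higher than EGFP- cells (log2 fold change 1.51, SE 0.30, adjusted p = 0.00302). *Slc6a4*, the serotonin transporter gene, was at 434 and 523 CPM in EGFP+ cells, against 181 and 192 in EGFP- cells and 175 and 255 in viable cells. It was 2.54-fold higher in EGFP+ than in EGFP- cells (log2 fold change 1.35, SE 0.31, adjusted p = 0.0102), and the EGFP- and viable values overlapped. The *Fcgbp* call was lost without EGFP+ mouse 1 (adjusted p = 0.0704) and that of *Slc6a4* without EGFP+ mouse 2 (adjusted p = 0.0922).

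*Smoc2* and *Dlk2* did not pass the test. *Smoc2* was at 177 and 149 CPM in EGFP+ cells, 98.1 and 122 in EGFP- cells and 96.2 and 126.2 in viable cells. Its log2 fold change of 0.56 (SE 0.35, adjusted p = 0.407) went with a ratio of pooled counts of 1.49 and an exact 95% interval of 0.998 to 2.27, which covers counting error only. *Dlk2*, the Notch-ligand relative, was at 56.3 and 45.1 CPM in EGFP+ cells and at 30.2 and 81.6 in EGFP- cells, which overlapped. Its log2 fold change was -0.18 (SE 0.49, adjusted p = 0.894), with an interval of the ratio from 0.477 to 1.67. *Dlk2* had 4 and 14 counts in the EGFP- libraries, and without the second the value was 0.83.

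*Pyy* had too few counts to be tested. It had 5 and 4 counts in EGFP+ cells, 0 and 0 in EGFP- cells and 6 and 5 in viable cells. Set against a floor of 3 counts over the EGFP- libraries together, it was at least 1.53-fold higher in EGFP+ cells by this floor, and the exact 95% interval of the ratio, which also covers the counting error of the 9 EGFP+ counts, began at 1.01.

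**Figure D4:**
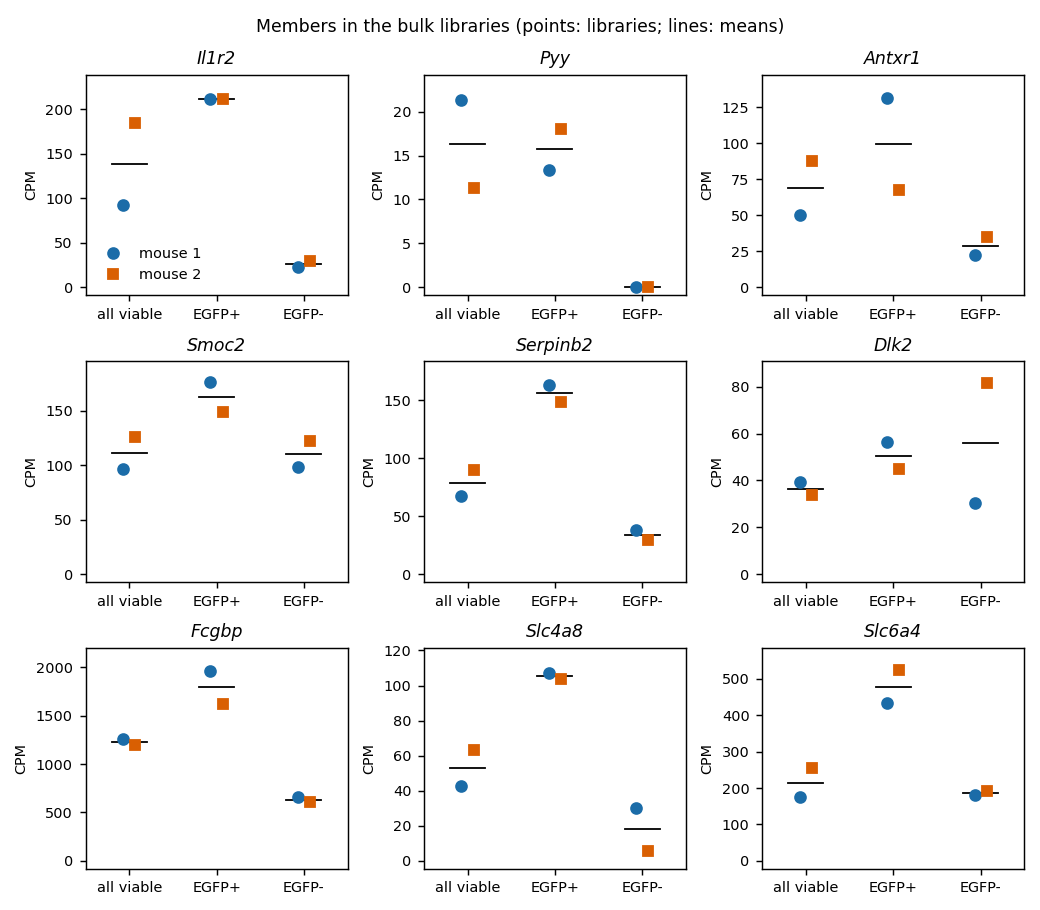
Level in CPM (y axis, linear from 0) of each of the 9 genes in the 6 bulk libraries, by sorted population (x axis). Circles are mouse 1, squares mouse 2 and lines the mean of the 2 libraries; EGFP+ and EGFP- libraries do not overlap for 8 genes, *Pyy* included, and overlap for *Dlk2*.

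Markers of other cell types moved with the gates. The 8 listed Langerhans cell markers together were at 99.2 and 110 CPM in the EGFP+ libraries, at 1344 and 1347 in EGFP- and at 354 to 634 in viable cells, and all 4 of those tested were lower in EGFP+ than in EGFP- cells. Of the 7 upper HF markers tested, 5 were lower in EGFP+ cells and 0 higher, and of the 5 lower HF markers 3 were lower and 0 higher. Of the 10 IFE basal markers, *Dst*, *Itga6* and *Itgb4* were higher, while *Krt14* itself was at 5938 and 5881 CPM in EGFP+ and at 4363 and 3522 CPM in EGFP- cells (log2 fold change 0.58, adjusted p = 0.326). Of the 9 IFE differentiated markers, 5 were higher, among them *Krt10* (1085 ± 117 against 346 ± 76.8 CPM, SD, n = 2; log2 fold change 1.66, adjusted p = 0.00179). T cell markers were at 4.51 to 5.36 CPM in EGFP+ and at 93.3 to 279 in EGFP- libraries, summed over the 6 of 8 listed genes that have a row in the bulk files, and none was tested. The summed markers of Merkel and endocrine cells were at 0 to 11.7 CPM in every library and those of mast cells and platelets at 0 to 10.7. Of these lists 5 of 8 and 4 of 7 genes have a row, and *Chga*, *Chgb*, *Krt18*, *Mcpt4*, *Tpsb2* and *Pf4* have none. Of the 4 sebaceous gland markers tested, *Mgst1* (adjusted p = 0.00631) and *Plin2* (adjusted p = 0.0024) were lower in EGFP+ cells, and the 5 listed summed to 162 to 225 CPM in EGFP+ and 466 to 536 in EGFP- libraries. *Kcnq1ot1* was at 7938 ± 396 against 15648 ± 3820 CPM (SD, n = 2; adjusted p = 0.157). The part of these other cell types and of this RNA in the members' differences was not tested.

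Compared with all viable cells, 0 of the 8 members were called in EGFP+ cells, where 0.473% of all genes were called in either direction (0.0645% higher and 0.408% lower). All 8 had a log2 fold change above 0, with a median of 0.56 over the members and 0.01 over all genes, and for 7 of the 8 both EGFP+ libraries lay above both viable libraries, against 20.6% of all genes. None lay below both, as 19.6% of all genes did. 3 of the 8 had an unadjusted p under 0.05, as did 6.66% of all genes: *Slc6a4* (log2 fold change 1.13, SE 0.28, adjusted p = 0.0872), *Serpinb2* (0.96, SE 0.30, adjusted p = 0.298) and *Slc4a8* (0.95, SE 0.37, adjusted p = 0.575). By DESeq2 0 were called as well. With the mouse as a replicate block, 1 of the 8, *Slc6a4*, was called (adjusted p = 0.00996). Without EGFP- mouse 1 or EGFP- mouse 2, *Slc6a4* and *Serpinb2* were called.

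In EGFP- against all viable cells, *Il1r2* was lower (5.36-fold, log2 fold change -2.42, SE 0.51, adjusted p = 0.0140), as were 0.86% of all genes tested (0.924% were higher and 1.78% called in either direction). It was the only one of the 8 called by edgeR. The call was lost without the viable library of mouse 2 (adjusted p = 0.238), while without EGFP- mouse 1 or EGFP- mouse 2 the members called were 3 and 2. 5 of the 8 members lay below both viable libraries in both EGFP- libraries, against 21.1% of all genes. The median log2 fold change was -1.11 over the members and 0.04 over all genes. *Dlk2* (0.69, SE 0.51) was the only member above 0, and *Smoc2* was at -0.02 (SE 0.35). The 3 comparisons share libraries and are set side by side only.

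**Figure D5:**
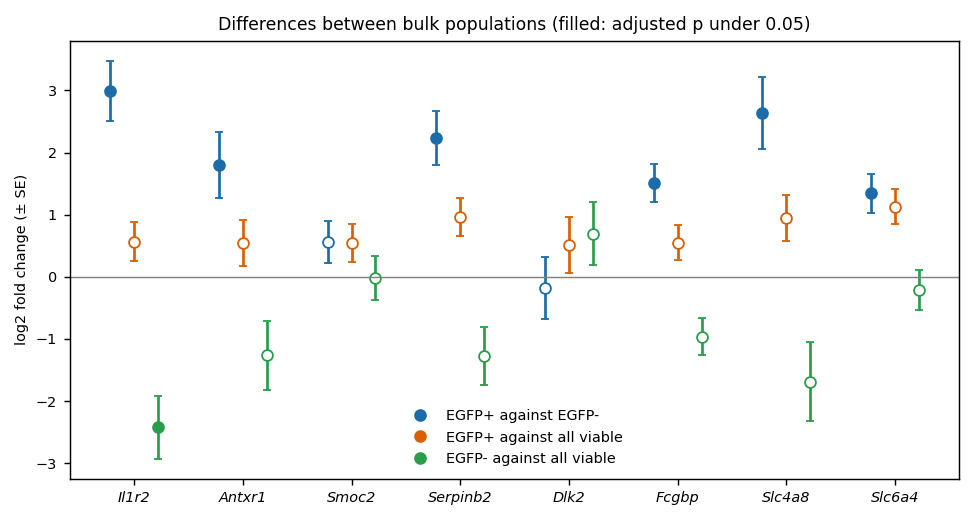
Log2 fold change with its SE (y axis) of the 8 genes tested in the bulk libraries (x axis), for EGFP+ against EGFP- (blue), EGFP+ against all viable (orange) and EGFP- against all viable (green) cells. Filled points have an adjusted p under 0.05: 6 genes in the first comparison, 0 in the second and *Il1r2* in the third.

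Of the genes related to the members, few were abundant enough to be tested. In the IL-1 family, 3 of 14 were tested and 1 was higher in EGFP+ than in EGFP- cells: *Il33*, an IL-1 family cytokine of epithelial nuclei (83.5 ± 3.23 against 19.2 ± 5.82 CPM, SD, n = 2; log2 fold change 2.06, SE 0.54, adjusted p = 0.0230). Of the serpins and plasminogen genes, 4 of 14 were tested and *Serpinb10* was the 1 called. Of the bicarbonate and chloride transporter genes, 3 of 12 were tested and 1 was lower: *Car12*, a carbonic anhydrase (147 ± 54.2 against 351 ± 101 CPM, SD, n = 2; log2 fold change -1.20, SE 0.33, adjusted p = 0.0308). None of the 6 tested genes of the Notch and DLK family was called, nor the 1 tested gene of the peptide YY and serotonin system. Of the anthrax toxin receptor and SPARC family 2 of 8 were tested and neither was called, whereas *Col6a1*, a collagen chain, was lower than in viable cells both in EGFP+ (log2 fold change -2.23, adjusted p = 0.0251) and in EGFP- cells (-3.10, adjusted p = 0.0118).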

How the data were processed

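Bulk mRNA was sequenced by CEL-Seq2 and single cells by SORT-seq, which both read the 3' end of transcripts. Bulk populations were deposited by the authors as whole-number counts per gene, not normalized. The plate files were deposited as estimated transcript numbers for each gene in each well, in which repeated draws of a molecular barcode are corrected for. With 4096 possible barcodes (6 bases), every plate value equals a whole barcode count to within 1e-06. This length was inferred from the values, whereas the protocol in the labels gives 4 bases. BWA 0.6.2-r126 is named in the submitters' processing notes. Whether counting used strand is not given in the sources used here.

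For the 6 bulk libraries, edgeR 4.0.16 (R 4.3.3) was run with TMM factors, its default expression filter and 1 mean per population, and genes were called at a Benjamini-Hochberg adjusted p under 0.05. DESeq2 1.42.0 was an alternative. On data simulated for EGFP+ against EGFP-, edgeR recovered 83% of 200 genes changed by a log2 fold of 2 among 4316. Of its calls, 5.14% were false. A mouse number marks 1 animal, so the 3 populations of a mouse are paired; their deviations correlated by 0.0433, 0.0846 and 0.0234. With 2 mice per population, p-values rest on little replication.

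Wells were clustered with Seurat 5.3.0 and sctransform 0.4.2 (20 components, resolution 0.8), and immune clusters and those led by *Mir1950* and *Lipi* were set aside before a second round. Doublets were not called. Fold and likeness used log2(TPM + 20). Thinning drew 1000 transcripts per well with a fixed seed. Intervals and floors cover counting error only. Genes named are the 9 members, *Krt14*, *Krt10*, *Tnfrsf19*, list markers, related genes that pass the bulk test and the 8 genes most like the members; other genes in the fold ranking were chosen after their values were seen. The members and lists were chosen with earlier results of these data known, and for the members these included bulk results. Alternatives were other tools, filters, normalizations, minimums, thinning, clustering settings and leaving out a library or plate; the one that leaves out the well with most *Pyy* was added after seeing the data.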

Additional observations from a re-analysis of the deposited data

Results flagged for a closer look

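Outlying plates were looked for in 27 groups of 4 EGFP plates (share of wells, thinned share and level of each of the 9 genes), by Dixon's 95% critical value for 4 samples. 5 groups held one. For a single group chance gives about 1 in 20, but the 27 groups share genes and plates, so their count cannot be set against that rate. *Pyy* in EGFP mouse 3 lay apart by its share of wells (9.17%) and by its level (313 TPM). In EGFP mouse 1, *Fcgbp* lay apart with 7.04% of wells and with 1.41% of wells after thinning. *Smoc2* in the same mouse, with 4.23% of wells after thinning, lay just past the critical value. The plate of EGFP mouse 1 had 71 kept wells, 10 of them IFE basal-like, and 62% of its wells held neither *Krt14* nor *Krt10*. On the other 3 EGFP plates 17.4% to 20.6% of wells did. The part of this in the low shares was not tested.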

How the results depend on the processing

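In EGFP+ against EGFP- cells the 6 members called became 4 by DESeq2, 5 with only the 2 populations in the fit and 4 to 6 when 1 library was left out. In EGFP+ against all viable cells, 0 became 1 with the mouse as a replicate block, 1 with only the 2 populations and 0 to 2 without 1 library. In EGFP- against all viable cells, 1 became 2 by DESeq2, 2 with no filter on low counts and 0 to 3 without 1 library. The replicate block changed no other call of a member. A library left without a partner was assumed to vary like the other groups. Over all genes, the 328, 22 and 83 calls of these comparisons became 468, 49 and 163 with the block, 141, 10 and 33 by DESeq2, 409, 43 and 133 with no filter, and 151, 66 and 38 with only the 2 populations, and ranged from 131 to 751, 7 to 124 and 27 to 464 without 1 library. Some members changed direction when 1 library was left out, as ranges of the log2 fold change: *Dlk2* from -0.64 to 0.83 in EGFP+ against EGFP-, *Antxr1* from -0.069 to 1.05 in EGFP+ against viable, and *Dlk2* from -0.30 to 1.15, *Smoc2* from -0.26 to 0.19 (with 0.09 without EGFP- mouse 1) and *Slc6a4* from -0.50 to 0.078 in EGFP- against viable. The cause was not tested. The share of wells with a member was 38.2% (EGFP) and 53.6% (traced) after thinning, and in the traced mice 68.1% and 75.9% with a lower and a higher minimum of transcripts per well and 75.7% in epidermal wells alone. The difference between both kinds of *Krt14*+ wells of the EGFP mice stayed below 0 under all 9 alternatives, whereas the pooled traced shares differed the other way, also after thinning. All 9 members stayed highest in the IFE basal-like class among epidermal classes of the EGFP mice under all 6 clustering alternatives. This is a description only, because the genes were chosen for their fold in such wells of these data. In 1 of the 6 alternatives the members were also among the clustering genes.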
